A study of Mus musculus with 2 samples.

Results

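The subunit genes of the mitochondrial respiratory chain and ATP synthase were examined for USF1 binding at their promoters. Members were protein-coding genes chosen by symbol: Nduf genes of the a, b, c, s and v series (complex I), Sdha to Sdhd (II), the Uqcr genes and Cyc1 (III), Cox4i1 and the Cox5 to Cox8 genes (IV) and the Atp5 genes (V). The rule gave 87 of 21900 RefSeq protein-coding genes, and 86 of them, against 21479 genes in all, had a 5′ end that could be placed. Ndufb4c had no strand and was left out. By complex the numbers were 39, 4, 9, 17 and 17. A gene was called bound where the summit (the highest point) of a region in the authors' optimal mm10 list or in their mm9 list lay within 1 kb of any annotated 5′ end.

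USF1 was measured by chromatin immunoprecipitation and sequencing in CH12.LX, an immortalized mouse line labelled as B-cell lymphoma and as coming from a female of strain B10.H-2aH-4bp/Wts. There was 1 group of 2 biological replicates, with no treatment, genotype or time point to compare. Expression was not measured, so the cell label could not be set against marker genes, and how separately the replicates were grown is not given in the sources used here. Read counts are not given either, so depth is unknown, and intervals on shares of genes cover counting error only.

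Complexes I to IV pass electrons from NADH and succinate to oxygen, and complexes I, III and IV pump protons across the inner mitochondrial membrane as they do so. ATP synthase, complex V, lets the protons flow back through its membrane ring and uses that flow to turn its F1 head and make ATP. Most of their subunits are encoded in the nucleus and imported. USF1 is a basic helix-loop-helix leucine zipper factor that binds the E-box CACGTG as a dimer.

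The sequences below are shown because 9 of the 16 bound members carried CACGTG, or its variant with CA at the centre, within 50 bp of a summit in mm9, and Atp5pb, which is in the optimal list only, carried CACGTG near its mm10 summit. Each runs 5′ to 3′ on the gene's own strand with the E-box in capitals; that of Cox5a is the variant, read on its other strand. Coordinates are NCBIM37 (mm9), except for Atp5pb, whose sequence is the upstream edge of its RefSeq promoter entry in GRCm38.p6. Atp5a1 also had CACGTG at its summit and is named only.
Ndufa7, chr17:33961433-33961462, plus strand: gcggagaggagtCACGTGagcaggggatgc
Ndufs1, chr1:63223873-63223932, minus strand: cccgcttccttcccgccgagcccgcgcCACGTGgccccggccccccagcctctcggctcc
Ndufv1, chr19:4012892-4012951, minus strand: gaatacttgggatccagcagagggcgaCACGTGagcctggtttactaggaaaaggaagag
Ndufv3, chr17:31658076-31658135, plus strand: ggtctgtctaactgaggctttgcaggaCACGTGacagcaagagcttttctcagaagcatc
Uqcrq, chr11:53244504-53244533, minus strand: ataagccccaccCACGTGtcgctagaagcg
Cox5a, chr9:57368536-57368595, plus strand: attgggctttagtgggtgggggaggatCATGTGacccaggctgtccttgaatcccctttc
Atp5d, chr10:79601980-79602009, plus strand: ggtggggccgcgCACGTGaccgcgttggcg
Atp5g1, upstream summit, chr11:95937282-95937341, minus strand: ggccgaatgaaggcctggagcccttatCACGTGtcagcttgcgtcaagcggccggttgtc
Atp5g1, summit at the start, chr11:95936972-95937001, minus strand: agggactccgaaCACGTGggtgggggagct
Atp5pb, E-box at chr3:105959507-105959512 of mm10, minus strand: aCACGTGgtgtacctctgc

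USF1 was bound at 16 of the 86 members (18.6%, 95% Wilson interval 11.8 to 28.1), against 3516 of 21479 protein-coding genes (16.4%). The share of the members was near that background and its interval contained it. The bound genes were Ndufa7, Ndufb3, Ndufb6, Ndufs1, Ndufs8, Ndufv1 and Ndufv3 of complex I, Uqcrq of complex III, Cox5a and Cox7a2 of complex IV, and Atp5a1, Atp5d, Atp5g1, Atp5h, Atp5o and Atp5pb of ATP synthase. Of these, 11 were in both lists, 2 in the optimal list only (Ndufs8 and Atp5pb) and 3 in the mm9 list only (Ndufb3, Ndufv1 and Cox7a2). The count was also 16 with a single most upstream 5′ end per gene (14.4% of all genes) and with overlap of the region in place of the summit (16.8%).

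By complex, 7 of 39 complex I genes were bound (17.9%, interval 8.98 to 32.7) and 0 of 4 complex II genes (0 to 49). Complex III had 1 of 9 (11.1%, 1.99 to 43.5) and complex IV 2 of 17 (11.8%, 3.29 to 34.3). ATP synthase had 6 of 17 (35.3%, 17.3 to 58.7). The intervals of the 5 complexes overlapped, no test between them was run, and only that of ATP synthase had its lower bound, by a small margin, above 16.4%. With the mm9 list alone 5 of the 17 were bound (29.4%, 13.3 to 53.1), and that interval contained the background of 15.1% in that list. It was the same with a limit of 500 bp (5 of 17, against 14.4%), and with a limit of 5 kb the interval for 6 of 17 contained the background of 22.1%.

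**Figure D1:**
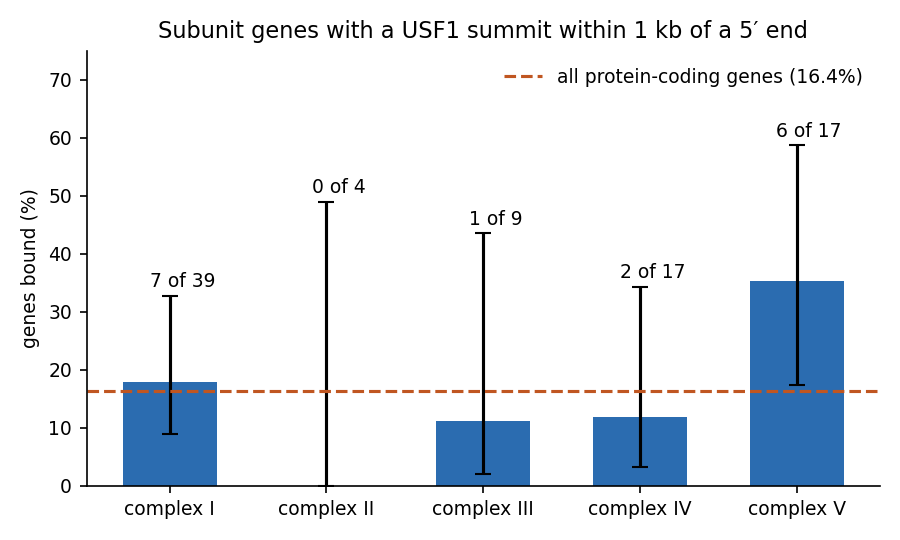
Share of genes bound in each complex (bars, percent of genes) with 95% Wilson intervals and counts, and the share over all protein-coding genes (dashed line, 16.4%). The 6 of 17 ATP synthase genes give the highest share, and all 5 intervals overlap.

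The regions at ATP synthase genes were stronger than those at most bound complex I genes. Signal is the authors' value for a region, on a scale that the sources do not give, and is compared only within a list. A replicate's value is that of its own mm10 region over the optimal summit or, for the 3 members in the mm9 list only, its strongest region within 1 kb, which need not be the same region in both replicates. In the optimal list the median was 116.5 over the 6 ATP synthase genes and 28.68 over the 5 complex I genes present. In replicate 1 the bound ATP synthase genes had signals from 22.33 to 153.7 (median 46.67) and the bound complex I genes from 9.09 to 161.3 (median 11.64). In replicate 2 the ranges were 38.62 to 166.2 (median 71.67) and 14.93 to 187.8 (median 17.84). In each replicate 6 of the 7 bound complex I genes, all but Ndufa7, lay below every bound ATP synthase gene. For Ndufv3 these values are those of its summit 24 bp downstream. The separation did not hold in the mm9 list, where Ndufv3 had a stronger summit 987 bp downstream (153.7). That was above Atp5a1 (147.9), Atp5d (128.4) and Atp5o (103.5), and below Atp5h (159) and Atp5g1 (904.7). The authors' conservative list, their stricter mm10 list, held all 6 of the ATP synthase genes and 1 of the complex I genes, Ndufa7, with 9 members in all against 11.7% of all genes.

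Over all complexes the 13 members in the optimal list had a median signal of 87.63 (range 26.28 to 346.9, SD 105), against 130.8 over the 2681 bound genes of that list. Only Ndufa7 and Atp5g1, 2 members, reached that median. In the mm9 list the medians were 116 for the members and 111.8 for all bound genes. In the replicates' own lists the medians were 23.62 for the members and 63.03 for all bound genes in replicate 1, and 42.81 and 68.19 in replicate 2. The members' median was the lower in the optimal list and in both replicates, and the higher in the mm9 list, which holds a partly different set of genes.

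Within complex I, the L-shaped enzyme that oxidizes NADH, 3 of 7 nuclear core subunits were bound: Ndufs1, Ndufs8 and Ndufv1 (42.9%, interval 15.8 to 75). Of 30 supernumerary subunits, which surround the core, 4 were bound (13.3%, 5.31 to 29.7), a difference within the intervals. Both intervals contained the share over all genes, 16.4%. These classes do not cover all 39 genes of complex I. Ndufa7, a supernumerary subunit, had the highest signal of all members, 161.3 in replicate 1, 187.8 in replicate 2 and 346.9 in the optimal list. Its region (chr17:33824393-33824590, mm10) stood at the 74.9th percentile of bound genes, with its summit 62 bp upstream of the 5′ end and 52 bp from that of the ribosomal protein gene Rps28, which is nearer.

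The core subunits were weak in both replicates. Ndufs1, which carries iron-sulfur clusters of the electron path, had signals of 9.71 and 17.24 in replicates 1 and 2, and 26.28 in the optimal list. Its summit lay 512 bp upstream, 503 bp from the start of the translation elongation factor gene Eef1b2. Ndufs8, another iron-sulfur subunit, had 11.64 and 18.74 in the replicates and 28.68 in the optimal list, 108 bp upstream. Ndufv1, which holds the flavin that accepts electrons from NADH, had 9.09 and 28.61 in the replicates and 42.33 in the mm9 list, where its summit lay 77 bp upstream. All 3 were higher in replicate 2, Ndufv1 by the widest gap.

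The supernumerary subunits Ndufb3, Ndufb6 and Ndufv3 were also weak in both replicates, Ndufv3 at its summit 24 bp downstream. Ndufb3 had 14.7 in replicate 1, 15.07 in replicate 2 and 35.12 in the mm9 list, with its summit 2 bp from the start of Fam126b. Ndufb6 had 9.308 and 17.84 in the replicates and 27.68 in the optimal list, 46 bp downstream of its 5′ end. Ndufv3 had 17.49 and 14.93 in the replicates and 36.01 in the optimal list, 24 bp downstream. In mm9 Ndufv3 had a weak summit at the same distance, 24 bp downstream (38.57), and a stronger summit with CACGTG 987 bp downstream (153.7), just inside the 1 kb limit. The strongest optimal summit near Ndufv3 (119) lay 1061 bp downstream, just outside it.

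In complex III, which passes electrons from ubiquinol to cytochrome c, the bound gene was Uqcrq, a small supernumerary subunit. Its signal was 52.63 in replicate 1, 42.81 in replicate 2, 93.99 in the optimal list and 153.6 in the mm9 list. Uqcrq was 1 of only 2 of the 13 members in the optimal list, with Ndufv3, that were higher in replicate 1. Its summit was 170 bp upstream and 227 bp from the start of Gdf9, an oocyte growth factor gene. None of the 4 core genes of complex III or of the 4 complex II genes was bound. The interval was 0 to 49 for each, against 16.4% of all genes.

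In complex IV, cytochrome c oxidase, the bound genes were Cox5a and Cox7a2, both supernumerary subunits. Cox5a had 20.83 in replicate 1, 31.81 in replicate 2, 55.72 in the optimal list (477 bp upstream) and 75.45 in the mm9 list. Cox7a2 had 7.779 in replicate 1 and 29.77 in replicate 2, and was bound only through the mm9 list (34.98, 173 bp downstream). Of the 6 tissue-restricted isoform genes of complex IV 0 were bound (interval 0 to 39, against 16.4% of all genes).

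In ATP synthase the bound genes lay in the F1 head and central stalk, the c ring and the peripheral stalk. Atp5g1, which encodes a c-ring subunit, had 153.7 in replicate 1, 166.2 in replicate 2, 319.2 in the optimal list and 904.7 in the mm9 list. It was the only member with 2 separate summits that each carried CACGTG. In mm10 the stronger region (chr11:96075884-96076134) had its summit 323 bp upstream, and the weaker (122.8) had its summit 20 bp downstream of the 5′ end. The other c-ring genes, Atp5g2 and Atp5g3, which encode the same mature protein, were not bound.

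The F1 head with its central stalk had 2 of 5 genes bound (interval 11.8 to 76.9, which contained the 16.4% of all genes). Atp5a1, the alpha subunit, had 53.07 in replicate 1, 79.13 in replicate 2 and 130.4 in the optimal list, 9 bp from its own 5′ end and 108 bp from that of Haus1, a mitotic spindle gene. Atp5b, the catalytic beta subunit, had no region within 1 kb in any list. Atp5d, the delta subunit of the central stalk, had 49.66, 65.68 and 111.8 in the same lists. Its summit lay 557 bp downstream, within 112 bp of the start of Cbarp, and it was the member lost when the limit was set to 500 bp (15 members, 14.4% of all genes).

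The peripheral stalk, which holds the head still against the turning ring, had 3 of 4 genes bound (75%, interval 30.1 to 95.4). Over all genes the share was 16.4%. The 3 are part of the bound ATP synthase genes counted above, so this is not a separate result. Atp5h had 43.69 in replicate 1, 77.66 in replicate 2 and 121.3 in the optimal list, 85 bp upstream of its start and 90 bp from that of Kctd2. Atp5o, the oligomycin sensitivity subunit, had 23.62, 62.38 and 87.63 in the same lists, with its summit 5 bp upstream. Atp5pb, called Atp5f1 in mm9, had 22.33, 38.62 and 61.46, with its summit 29 bp from the start of Wdr77. The fourth stalk gene, Atp5j, had 12.23 and 15 in the replicates and was not called bound. None of the 5 accessory subunits of the membrane part was bound (interval 0 to 43.4, against 16.4% of all genes), and the highest signal among them was 10.98.

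**Figure D2:**
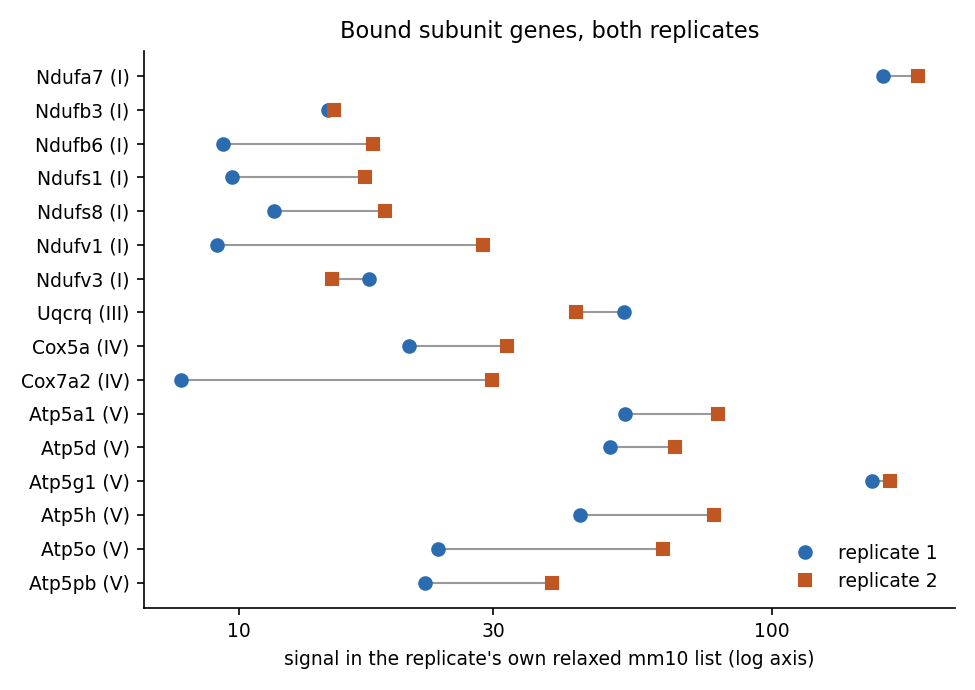
Signal of each bound gene (complex in parentheses) in the relaxed mm10 list of replicate 1 (circles) and of replicate 2 (squares), on a log axis. Ndufa7 and Atp5g1 stand highest in both replicates, and the other complex I genes lie below every ATP synthase gene in each.

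Between replicates, 11 of the 13 members in the optimal list were higher in replicate 2, with a median ratio of 1.527 (0.8133 to 2.64). Over 2655 bound genes the median ratio was 1.112. Among bound genes with optimal signals of 26.28 to 130.4, the range that held 11 of the members, it was 1.611 for the members and 1.101 over 1308 genes. Atp5o was the only one of the 13 to differ by more than 2-fold, which 4.41% of bound genes did. With 2 replicates of 1 group, no test was made of this difference.

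The replicates also differed in which members they held. When bound was read from the 8108 strongest regions of each replicate's own list, in number equal to the optimal list, replicate 2 alone gave 13 members (12.9% of all genes) and replicate 1 alone gave 10 (12.5%). Replicate 2 alone lost Ndufb3, Ndufb6, Ndufs1 and Ndufv3 and added Ndufa6. Replicate 1 alone lost Ndufb3, Ndufb6, Ndufs1, Ndufs8, Ndufv1 and Cox7a2. Complex I went from 7 genes to 4 and 2, whereas ATP synthase kept the 6 genes in each.

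Among the 70 members that were not bound, most had some weak region nearby. A relaxed region of the pooled mm10 list, which includes background, lay within 1 kb of 59 of them (median signal 12.16, 5.566 to 35.3) and of none of the other 11. That list holds 300000 regions, and the share of all genes not bound that had such a region was not counted. The 59 are therefore not a result about the members. A region in both replicates' own lists was present at 16 (22.9%, interval 14.6 to 34), against 9.29% of the genes not bound overall. Another 21 had a region in replicate 2 only, 2 in replicate 1 only and 31 in neither. Replicate 2's own list was the longer, with 44551 regions against 25978 in replicate 1. These counts were not set against all genes. The genes behind the 9.29% were not matched to the members in CpG content or shared starts. The median ratio of observed to expected CpG was 0.7102 in members not bound, against 0.5819 over all genes. Another gene's start lay within 1 kb of that of 37.2% of members, against 12.1% of all genes. The part of these differences in the 22.9% was not tested. Over all members, with genes lacking a region set to 0, the median relaxed signal was 12.89, against 6.987 over all genes, and by complex it ran from 7.453 (IV) to 14.77 (V).

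The members nearest to the bound set were Ndufa6, a complex I supernumerary subunit, with 10.37 in replicate 1, 22.91 in replicate 2 and 35.3 in the pooled list, and Atp5j, with 28.34 in the pooled list. Ndufs7, a core iron-sulfur subunit of complex I, had 22.82, and Cox7a1, the muscle isoform of Cox7a, had 22.55. Ndufa4, placed in complex I here by its symbol alone but found with complex IV, had 21.4. Sdhd, a membrane anchor of succinate dehydrogenase, had 21.32. Ndufa6 had a higher pooled signal than Ndufs1 (26.28), which was bound, and was also the higher in each replicate.

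Core genes of complexes II and III that were not bound lay on both sides of the members' median pooled signal of 12.89. Sdha, the flavoprotein of complex II, had a pooled signal of 6.522, and Sdhb, its iron-sulfur partner, had 11.74. Cyc1, the cytochrome c1 gene, had 13.73 and Uqcrc1, a matrix-side core protein of complex III, had 12.78. Sdha and Cyc1 had no region in either replicate's own list.

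**Figure D3:**
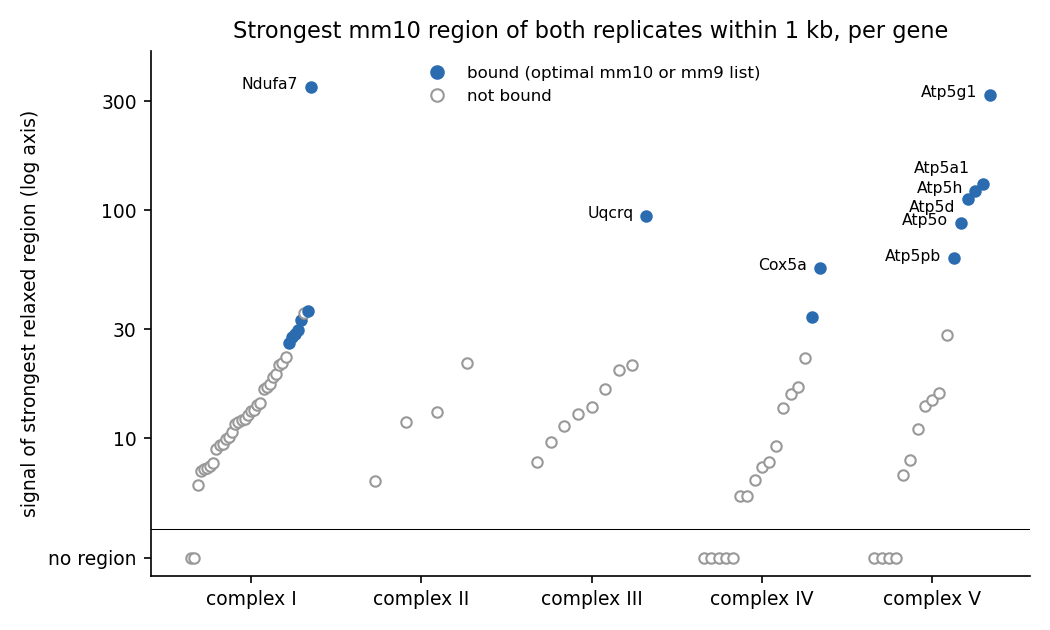
Signal of the strongest region in the pooled relaxed mm10 list within 1 kb of each of the 86 genes, by complex, on a log axis; filled circles are bound, open circles not bound, and genes with no region stand below the line. The bound ATP synthase genes are separated from the other genes of that complex, while 6 of the 7 bound complex I genes adjoin the genes that were not bound.

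A limit of 5 kb gave 24 members (22.1% of all genes). It added Uqcrfs1, the Rieske iron-sulfur protein of complex III, with an optimal summit of 324.2 that lay 3696 bp upstream and had no other gene's start within 5 kb. Ndufs6 was added with a summit of 427.8 that lay 24 bp from the start of Mrpl36, a mitochondrial ribosomal protein gene, and 2503 bp upstream of Ndufs6. Cox7b was added with a summit of 449.8, 3798 bp upstream and 100 bp from the start of Magt1. The other additions, Ndufb1 (80.68), Ndufb4b (73.06), Ndufb10 (65.59), Ndufa2 (52.38) and Cox4i1 (45.58), were weaker, and the Ndufb10 summit lay 53 bp from the start of the ribosomal protein gene Rps2.

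Many members share their promoter with a neighbour. Another protein-coding gene's start lay within 1 kb of that of 32 of the 86 members (37.2%), against 12.1% of all genes. USF1 was bound at 9 of these 32 (28.1%, interval 15.6 to 45.4), against 29.8% of all genes with such a neighbour. Of the 54 members with no such neighbour 7 were bound (13%, interval 6.42 to 24.4), against 14.5% of such genes. In both classes the members were near the background. At the summits themselves, 8 of the 13 in the optimal list lay within 1 kb of another gene's start, against 21.8% of bound genes, and 5 of the 16 bound members had another gene's start nearer than their own. Which gene of a pair the binding bears on was not tested.

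CACGTG was found within 50 bp of the summit at 8 of the 14 members in the mm9 list (57.1%, interval 32.6 to 78.6), against 56.6% of 3207 promoter peaks. These were Ndufa7, Ndufs1, Ndufv1, Ndufv3, Uqcrq, Atp5a1, Atp5d and Atp5g1, with the centre of the E-box at a median of 15.5 bp from the summit and at most 38.5 bp. The strongest mm9 summit of each gene was used. For Ndufv3 that is the summit 987 bp downstream, and its weaker summit 24 bp downstream had neither E-box. Cox5a had CACATG only, as 13.2% of promoter peaks did. Ndufb3, Ndufb6, Cox7a2, Atp5h and Atp5o had neither string (35.7%, interval 16.3 to 61.2), against 30.2%. These shares did not set the members apart from other promoter peaks.

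Among the members, signal was higher where CACGTG was present. The median mm9 signal was 150.7 at the 8 summits with CACGTG (36.49 to 1042) and 35.12 at the 5 with neither string (30.19 to 159). Over all promoter peaks the medians of the same classes were 195.5 and 48.11. The members did not divide cleanly: Ndufs1 and Ndufv1 had CACGTG and low signals of 36.49 and 42.33, while Atp5h had neither string and 159. At Atp5pb, in mm10, the centre of the E-box printed above lay 17.5 bp from the optimal summit.

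**Figure D4:**
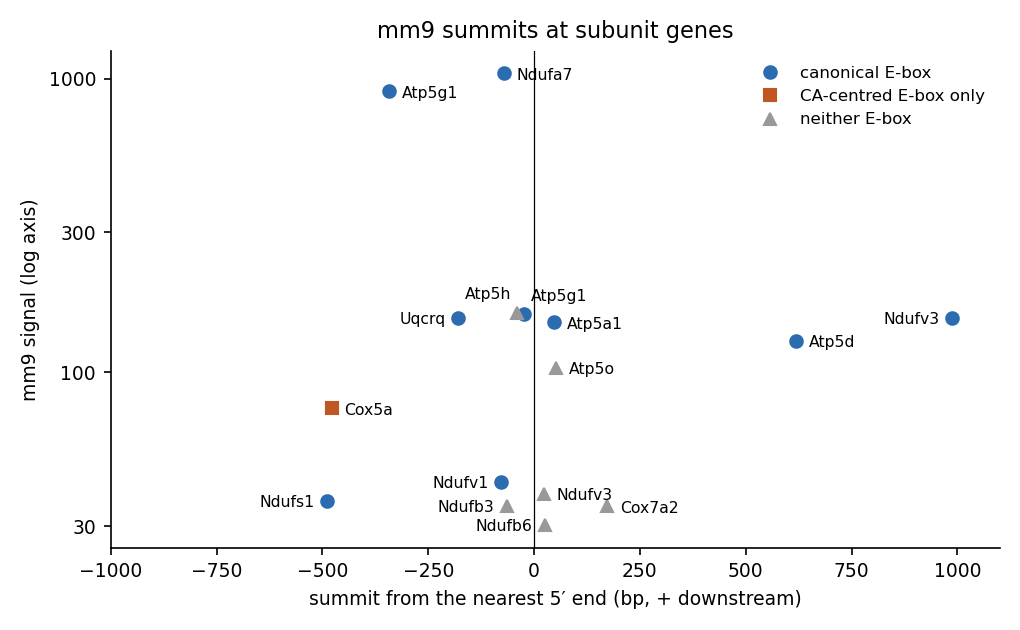
Position of each mm9 summit relative to the gene's nearest 5′ end (x axis, bp, positive downstream) against its mm9 signal (log axis), marked by the E-box found within 50 bp. Ndufa7 and the upstream summit of Atp5g1 stand highest, and Ndufv3 and Atp5g1 each have 2 summits.

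Seen from the promoter sequence, CACGTG lay between 250 bp upstream and 50 bp downstream of the main 5′ end of 7 of the 84 members with an mm9 start (8.33%), against 7.93% of all promoters. Of these 7, 5 were bound (71.4%, interval 35.9 to 91.8): Ndufa7, Ndufv1, Uqcrq, Atp5a1 and Atp5g1, against 59.3% of all genes with the string. Of the 77 members without it 11 were bound (14.3%, interval 8.17 to 23.8), against 13.5%. Atp5pb was counted among these 11. Its RefSeq promoter entry in mm10 does hold CACGTG, centred at -246 bp from the 5′ end, so the split depends on the 5′ end used. The members with CACGTG that were not bound were Atp5g3, a c-ring gene, and Atp5l, an accessory membrane subunit. Neither had a region in any list within 1 kb. The E-boxes of these genes are shown from the RefSeq promoters (GRCm38.p6), for comparison with that of Atp5g1.
Atp5g3, E-box at chr2:73911559-73911564, minus strand: acccctgcctggCACGTGcaaggagcgagg
Atp5l, E-box at chr9:44920884-44920889, minus strand: ctcaggattcttCACGTGttatcgcgcctc

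Member promoters were rich in CpG. The ratio of observed to expected CpG within 500 bp of the 5′ end had a median of 0.7216 over members, against 0.5819 over all genes and 0.7409 over bound genes. Bound members (0.7458) and the others (0.7102) were close. Of the 63 members at or above the members' lower quartile of this ratio (0.6138), 11 were bound (17.5%, interval 10 to 28.6), against 26.3% of all genes above the same value, which is within the interval.

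Genes that assemble the complexes were compared from lists of assembly factors. USF1 was bound at 16 of 48 assembly factor genes (33.3%, interval 21.7 to 47.5), against 16.4% of all genes. The interval overlapped that of the subunits, and the difference from the subunits was not tested. These lists were chosen with earlier results of these data known, so the share cannot serve as evidence of an excess. The counts were 6 of 14 for complex I, 0 of 4 for II, 2 of 6 for III, 6 of 21 for IV and 2 of 3 for V. Atpaf2, a chaperone of the F1 head, was the strongest, with 294.9 in replicate 1, 286.6 in replicate 2 and 577.7 in the optimal list, 41 bp from the start of Gid4. Tmem126b, a complex I assembly factor, had 241.7, 276.9 and 515.5, and Coa7, an assembly factor of complex IV, had 199.5, 239.6 and 438.3. Each of these was above Ndufa7, the strongest subunit gene.

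Other genes around the chain were bound in part. Of 8 further subunits and carriers, which include the member Atp5md, 2 were bound: Atpif1, the inhibitor protein of ATP synthase, at 511.1, and Etfdh, which passes electrons to ubiquinone, at 120.2. Of 12 regulators of mitochondrial genes 4 were bound, among them Ppargc1a (158.2) and Pprc1 (153.1), coactivators, and Esrra (51.73), a nuclear receptor. Of 16 citrate cycle genes 3 were bound: Cs (197.5), Ogdh (124.1) and Idh3a (68.9). The intervals of the further subunits and carriers (25%, 7.15 to 59.1), the regulators (33.3%, 13.8 to 60.9) and the citrate cycle (18.8%, 6.59 to 43) contained the background of 16.4%.

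The vacuolar ATPase is a proton pump related in structure to ATP synthase, and its subunit genes differed from the members in both share and signal. USF1 was bound at 13 of its 23 genes (56.5%, interval 36.8 to 74.4), which did not overlap the interval of the respiratory subunits. The median optimal signal of the 12 in that list was 368.5, above every respiratory subunit gene. Mitochondrial ribosomal protein genes were bound at 22 of 78 (28.2%, interval 19.4 to 39, against 16.4% of all genes), with a median of 127.3. These lists were chosen with their binding already known, and no test was made.

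**Figure D5:**
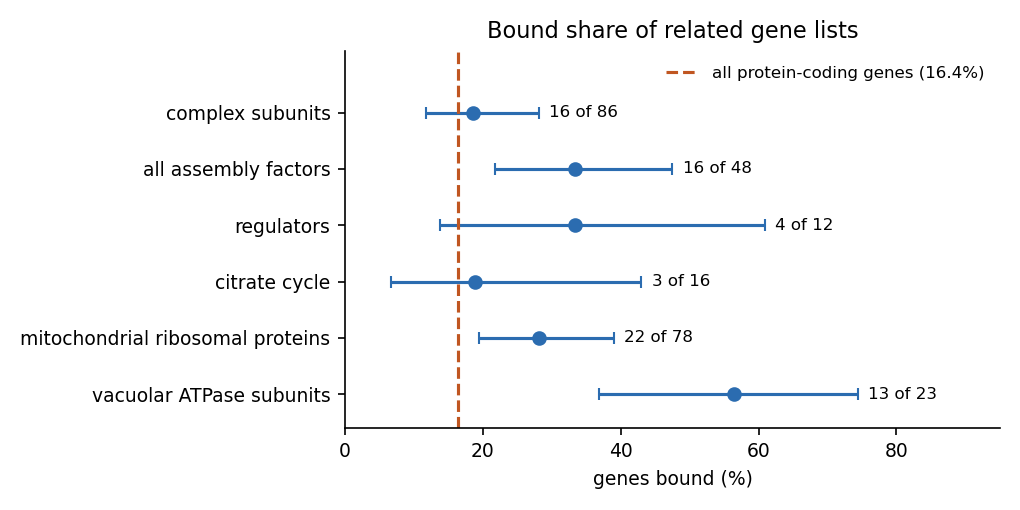
Share of genes bound (points, percent) with 95% Wilson intervals and counts for the respiratory complex subunits and related lists, and the share over all protein-coding genes (dashed line, 16.4%). Of the 6 lists plotted, the interval of the subunits contains the line and that of the vacuolar ATPase genes (13 of 23) lies farthest above it.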

How the data were processed

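The authors deposited lists of regions in narrowPeak format. Per the deposited readme files, relaxed mm10 lists were made for each replicate and for both together, optimal and conservative lists were derived from them by IDR (agreement of ranks), and an mm9 list came from both replicates' alignments. Caller, aligner and thresholds were not given in the sources used here. Every region's deposited signal was used unchanged. From these lists the summit was set against 5′ ends, with no conversion between builds. In mm10 these came from RefSeq (GRCm38.p6, strand from RefSeq promoters or Gencode vM1). In mm9 they came from all transcripts, coding or not, of the protein-coding genes of Gencode vM1.

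Sequences came from NCBIM37 and RefSeq promoters (70 of 86 members had an entry). Fixed strings were searched on both strands. Bound members were named, as were others by role, by regions in both replicates or by summits up to 5 kb away. Shares carry 95% Wilson intervals; with 1 group there was no contrast to test. The members and lists were chosen with earlier results of these data known. Python 3.11.15, pysam 0.24.0 and matplotlib 3.10.9 were used, and the distance and interval functions were tested on simulated data.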

Additional observations from a re-analysis of the deposited data

How the results depend on the processing

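The count of 16 bound members kept within 1.5 times of itself with the optimal list alone (13), the mm9 list alone (14), limits of 500 bp (15) and 5 kb (24), a single most upstream 5′ end per gene (16), overlap of the region in place of the summit (16) and without paralogues (16). It fell to 9 in the conservative list. From a single replicate the counts ran from 10 to 13 in all, 2 to 4 in complex I and 1 to 2 in complex IV, and 6 in ATP synthase from either. Complex I had 1 gene in the conservative list and 12 at 5 kb. Complex III had 2 at 5 kb. Complex IV had 1 in the optimal list alone, 1 in the conservative list and 4 at 5 kb. The cause of these shifts was not tested. The 8 summits with CACGTG became 7 within 25 bp and 8 within 100 bp. No paired analysis was possible because there is 1 group. Read depth is unknown, so a gene with no region may still hold weak binding.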

Other observations

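Strings of other factors were counted in the promoters of the members, from 250 bp upstream to 50 bp downstream of the 5′ end in mm9, on both strands. The NRF1 string GCGCATGC lay in 10 of 84 member promoters (11.9%, interval 6.6 to 20.5), against 3.55% of 20317 promoters. These were Ndufa6, Ndufa11, Sdhb, Uqcr11, Uqcrc1, Cox6a1, Cox8c, Atp5g2, Atp5k and Atp5l. Of the 10, 0 were bound (interval 0 to 27.8), against 24% of all genes with the string, a share within the interval. The ETS string CCGGAAG lay in 17 (20.2%, interval 13 to 30), against 11.4%, and 5 of these were bound (29.4%, interval 13.3 to 53.1, against 26.7% of all genes with it): Ndufb6, Ndufs1, Ndufs8, Uqcrq and Atp5h. The YY1 string AAGATGG lay in 10 (11.9%), against 6.43%, and the cyclic AMP response string TGACGTCA in 5 (5.95%), against 2.43%. GGGCGG and CCAAT were as common as in all promoters (45.2% against 46.6%, and 38.1% against 38.4%). Within 50 bp of the strongest mm9 summit of each gene, GGGCGG was found at 1 of 14 members (7.14%, interval 1.27 to 31.5), against 33.8% of promoter peaks. It was 1 of 8 strings counted there, with no test. The weaker mm9 summit of Ndufv3, 24 bp downstream, also held GGGCGG, so this count depends on the summit chosen. For the background every promoter peak was counted, not only the strongest of each gene. A match is a string in the window and not a measured site, and members are richer in CpG than other genes, so the part of base composition in these counts was not tested.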
